A study of Rattus norvegicus with 2 samples.

Results

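The 10 genes described here belong to the unfolded protein response and the amino acid stress response: Ddit3, Atf3, Atf4, Atf6, Xbp1, Herpud1, Trib3, Asns, Ppp1r15a and Calr. They were chosen by name, as all probe sets that carry one of these symbols in the full deposited table. The rule found 12 of 31095 probe sets, which stand for 9 of the 10 genes. No probe set carries the symbol Ppp1r15a. The gene number of Ppp1r15a belongs to 1 probe set that the file lists under the older symbol Myd116, and its values are given separately. RNA came from primary hepatocytes of male Sprague-Dawley (SD) rat liver, cultured on collagen with growth factors, and was measured on Affymetrix Rat Genome 230 2.0 arrays. One group was left without hormone and the other received 1 nM triiodothyronine (T3), the active form of thyroid hormone, for 24 h. Each group had 1 array, so that no difference was tested, no spread between cultures can be given, and every value below describes these 2 arrays only. The labels do not say how many rats gave the cells, and in bulk RNA fewer expressing cells and less RNA per cell cannot be told apart.

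The unfolded protein response is set off when proteins fail to fold in the endoplasmic reticulum (ER). It runs through membrane sensors, the kinase PERK (Eif2ak3), the RNase IRE1 (Ern1) and ATF6, which act on translation, on the splicing of Xbp1 mRNA and on ER chaperone genes. PERK and the amino acid sensor GCN2 (Eif2ak4) both phosphorylate the translation factor eIF2alpha, and this raises translation of ATF4, which turns on genes of amino acid supply. Liver cells secrete most plasma proteins and so carry a heavy folding load. Much of this pathway acts through protein cleavage, phosphorylation, splicing and translation, which mRNA signals of whole genes do not report.

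Promoter sequences from RefSeq (rat build GRCr8) were found for 8 of the 10 genes, all but Atf3 and Atf6. The 250 bases before the annotated start were searched on both strands for 5 elements known from this pathway, chosen with the array values known. These were the ER stress response element ERSE (CCAAT and CCACG with 9 bases between them), ERSE-II (ATTGG and CCACG with 1 base between them), the XBP1-type element UPRE (TGACGTGG), the ATF4-type element CARE (TGATGNAA) and the cyclic AMP element CRE (TGACGTCA). No pair of matches in these promoters overlapped, except that CRE reads the same on both strands. The promoters with a match are given 5′ to 3′, along the strand of the gene, because they hold the letters through which the pathway is known to act; capitals mark the matches.
Xbp1 promoter, chr14:84604373-84604622, + strand: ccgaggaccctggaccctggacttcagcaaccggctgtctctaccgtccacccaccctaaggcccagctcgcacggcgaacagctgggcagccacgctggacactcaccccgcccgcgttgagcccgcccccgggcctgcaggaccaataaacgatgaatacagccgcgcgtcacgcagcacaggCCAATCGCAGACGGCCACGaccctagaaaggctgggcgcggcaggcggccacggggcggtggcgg
Calr promoter, chr19:40213117-40213366, + strand: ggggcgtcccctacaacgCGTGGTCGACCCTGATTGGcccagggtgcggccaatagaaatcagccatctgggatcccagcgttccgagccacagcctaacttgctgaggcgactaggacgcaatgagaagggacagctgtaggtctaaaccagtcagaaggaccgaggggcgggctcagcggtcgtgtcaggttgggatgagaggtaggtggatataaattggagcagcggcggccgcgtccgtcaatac
Herpud1 promoter, chr19:10614708-10614957, - strand: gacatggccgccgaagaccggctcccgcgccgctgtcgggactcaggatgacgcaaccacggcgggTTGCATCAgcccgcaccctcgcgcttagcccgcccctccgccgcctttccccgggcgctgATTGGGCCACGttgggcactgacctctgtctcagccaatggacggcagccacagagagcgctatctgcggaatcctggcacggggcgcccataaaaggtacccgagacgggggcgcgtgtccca
Trib3 promoter, chr3:161275534-161275783, - strand: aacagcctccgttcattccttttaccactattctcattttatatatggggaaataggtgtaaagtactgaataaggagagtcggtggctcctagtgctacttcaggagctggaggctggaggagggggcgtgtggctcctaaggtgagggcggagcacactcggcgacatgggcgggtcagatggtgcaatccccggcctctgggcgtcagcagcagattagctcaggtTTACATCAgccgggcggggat
Ppp1r15a promoter, chr1:105139597-105139846, - strand: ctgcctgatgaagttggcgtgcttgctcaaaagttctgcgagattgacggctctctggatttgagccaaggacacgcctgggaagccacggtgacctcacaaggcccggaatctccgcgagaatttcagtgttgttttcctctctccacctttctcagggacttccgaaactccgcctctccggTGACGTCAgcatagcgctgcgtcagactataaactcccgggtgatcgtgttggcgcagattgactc
The ERSE letters lay 65 to 47 bases before the start in Xbp1 and, on the other strand, 232 to 214 bases before it in Calr. Of 33469 RefSeq promoters of the same length, 0.0657% held this element. Herpud1 held ERSE-II, 124 to 114 bases before the start, as did 0.0418% of all promoters. Herpud1 also held CARE on the other strand, 184 to 177 bases before the start, and Trib3 held it, also on the other strand, 21 to 14 bases before its start; 3.40% of all promoters did. The CRE letters stood 66 to 59 bases before the start of Ppp1r15a and in 1.59% of promoters. UPRE was found in 0 of the 8 promoters and in 0.520% of all. In the windows of Asns, Atf4 and Ddit3 no exact match of the 5 motifs was found. Only exact letters were counted, so an element with 1 differing base was passed over. The Ddit3 window holds such a case, ERSE on the other strand with CGTGC in place of CGTGG. Near matches were not counted in the other promoters. A match is a description of the letters and not a measured binding site.

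The stress response genes had close to the same signal with and without T3. A signal is the MAS5 value of a probe set, an intensity that the authors had already scaled, and the ratio is the T3 signal over the control signal. On both arrays 11 of the 12 probe sets were called present, meaning that their matched probes were brighter than mismatched partners, and 1 was absent on both. The ratios of the 11 ran from 0.901 in Atf3 to 1.06 in Xbp1, with 6 above 1 and 5 below it. The count of these probe sets past 1.5-fold was 0 in both directions, and so was the count past 2-fold. On the whole array, 18332 probe sets were present in 1 or both cultures. Of these, 4.11% were past 1.5-fold and higher with T3 and 2.65% past it and lower. At 2-fold the shares were 1.28% higher and 0.878% lower. None of the 13 probe sets, Ppp1r15a included, was among those the authors selected in their 4 deposited tables of increases and decreases. The share of all probe sets that those selections hold was not computed, so their absence is not read as a result. A count of 0 in 11 is near what such low shares give and is not a result about these genes. The median log2 ratio of the 11 was 0.00, and that of the 18332 was -0.004.

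**Figure D1:**
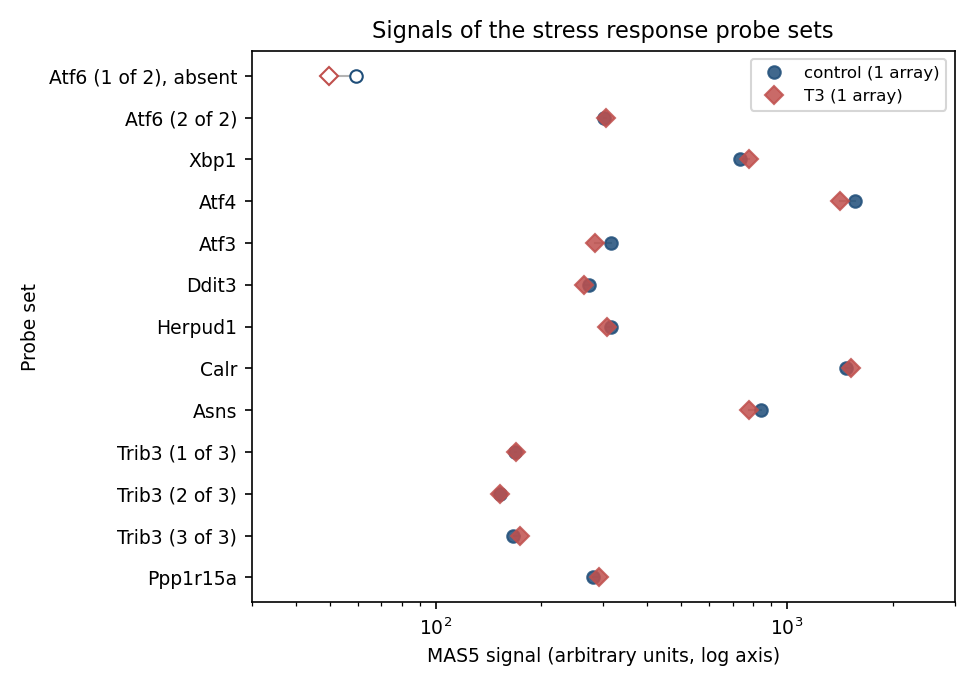
MAS5 signals (arbitrary units, log axis) of the 12 probe sets found by symbol and the Ppp1r15a probe set, with circles for the control array and diamonds for the T3 array. Open symbols mark the Atf6 probe set absent on both arrays; in the other probe sets the 2 points of a gene lie close together, with ratios from 0.901 to 1.06.

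Atf6 encodes an ER membrane sensor whose cytosolic part is cut free by the proteases MBTPS1 and MBTPS2 and enters the nucleus. Its present probe set had signals of 301 without and 304 with T3, a ratio of 1.01. Its other probe set had 59.3 without and 49.6 with T3 and was absent on both arrays, so it gives no ratio here. The detected Atf6 signals differed by 3.96 signal units.

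Xbp1 encodes the transcription factor made active when IRE1 splices its mRNA. The Xbp1 signal was 733 without and 779 with T3, a log2 ratio of 0.09, and this was the highest ratio of the group. The deposited table gives no separate value for spliced Xbp1 mRNA.

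Atf4 encodes the main transcription factor downstream of eIF2alpha phosphorylation. Its signal was 1557 without and 1419 with T3, a log2 ratio of -0.13. Atf3, a stress-induced relative of ATF4, had 314 without and 283 with T3, a log2 ratio of -0.15 and the lowest of the group. Ddit3 encodes CHOP, which in long-lasting ER stress promotes cell death. Its signals were 274 without and 264 with T3, a ratio of 0.964. Atf4, Atf3 and Ddit3, leucine-zipper genes downstream of eIF2alpha, thus had the lower signal on the T3 array, and none was near the 1.5-fold threshold. Of the 5 sensor and transcription factor genes, the other 2, Xbp1 and Atf6, were above 1. Of the genes described next, Trib3 and Ppp1r15a were above 1 and Asns was below it.

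Among the genes that these factors are known to turn on, Asns encodes asparagine synthetase, a standard marker of amino acid shortage. Its signals were 842 without and 778 with T3, a ratio of 0.924. Trib3, a pseudokinase induced by ATF4 and CHOP that binds the kinase AKT, had 3 probe sets. The first gave 167.7 and 169.2, the next 152.8 and 152.9, and the third 166 and 174, in control and with T3. Their ratios of 1.01, 1.001 and 1.05 lay close together; the first and next were designed from the same public sequence, and all of them share the RNA of the same cultures. Ppp1r15a encodes GADD34, the phosphatase subunit that reverses eIF2alpha phosphorylation. Its probe set, found by gene number, had 280 without and 292 with T3, a ratio of 1.04.

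Herpud1 encodes an ER membrane protein of the machinery that sends misfolded proteins to the proteasome. Its signals were 315 without and 308 with T3, a ratio of 0.977. Calr encodes calreticulin, the calcium-binding chaperone that holds new glycoproteins in the ER. Its signals were 1475 without and 1517 with T3, a ratio of 1.03. The ER genes Xbp1, Calr and Herpud1, whose promoters hold ERSE or ERSE-II letters as shown above, lay on both sides of 1. By promoter, the 5 genes with any exact match had ratios of 0.977 to 1.06 and the 3 without had 0.912 to 0.964. The median over the probe sets of Trib3 was taken. Atf3 at 0.901 and Atf6 at 1.01 are in neither group, because no promoter was found for them. Ddit3 is among the 3 only because a differing base was not allowed. The 5 elements were chosen with the ratios known, and the genes with a match hold different elements. The difference was not tested, and no conclusion is drawn from the split.

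In place of a replicate error, each ratio was set among those of its neighbours, the 500 probe sets nearest in mean log2 signal that were present in both cultures. All 12 present probe sets, Ppp1r15a included, lay inside the central 95% of their neighbours. The lower limit of that range was between 0.783 and 0.864 and the upper limit between 1.13 and 1.26, depending on the signal. The member nearest to an edge was Atf4, at percentile 9.6 of its neighbours, and at the other end Xbp1 was at percentile 82.6. Asns was at percentile 12.2, Atf3 at 12.4 and Ddit3 at 38. The median absolute log2 ratio was 0.05 in the 11 probe sets. It was 0.08 over the 5852 probe sets present on both arrays with geometric mean signals in the same range, from 153 to 1496. Of those 5852, 66.2% had ratios inside the range of 0.901 to 1.06. The lowest and highest ratios of the 11 set that range, so all 11 lie inside it by construction. The share is therefore no comparison of the 11 with the others. The position among neighbours holds biological and technical differences together.

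**Figure D2:**
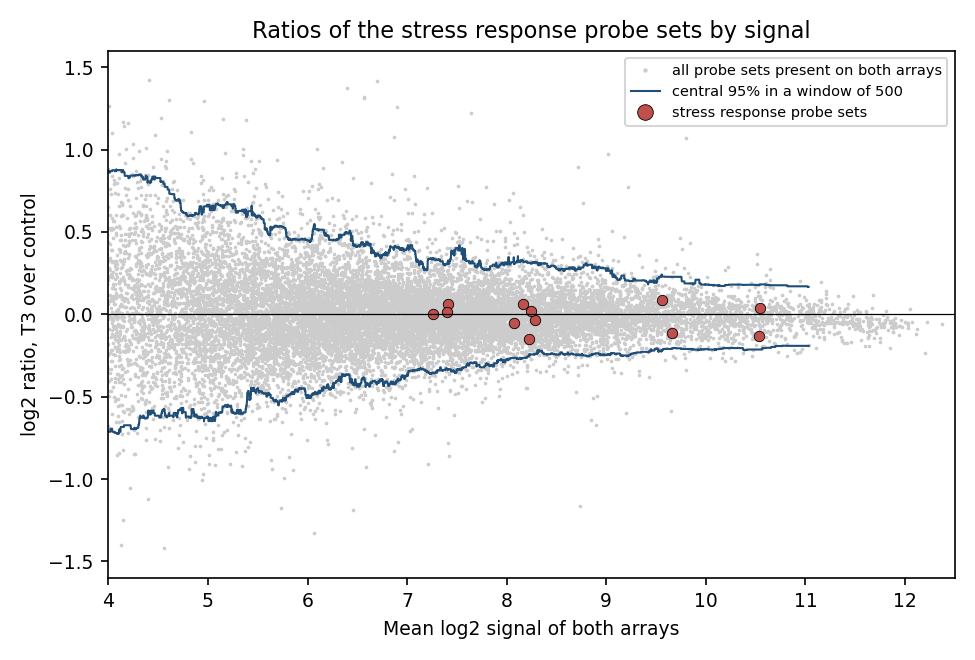
The log2 ratio of T3 over control (vertical) against the mean log2 signal of both arrays (horizontal) for probe sets present on both arrays (grey); the axes leave out the dimmest and the most extreme ones. Blue lines bound the central 95% of ratios in a moving window of 500 probe sets, and all 12 present stress response probe sets (red) lie between them.

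The wider pathway was read through 5 lists of 96 genes in all, none of them a member. The lists were chosen with earlier results of these data known. Each gene was represented by its brightest probe set present on at least 1 array, which left 86 genes. Of these 86, 0 were past 1.5-fold and higher and 1 was past 1.5-fold and lower, where all 9670 detected genes gave 2.81% and 1.68%. The gene was Gdf15, which encodes a hormone secreted by stressed cells that acts on the brain stem to reduce food intake. Its signal was 69.2 without and 36.2 with T3, a ratio of 0.523, and it was present on both arrays. That ratio was below those of all 500 neighbours in signal, whose central 95% ran from 0.713 to 1.44. Gdf15 was named for being past 1.5-fold, so an extreme rank was built into the choice. With a pseudocount of 64 added to both signals Gdf15 was no longer past 1.5-fold, and the count was 0. Gdf15 has 1 detected probe set, and its entry in the authors' deposited table of decreases has the same ratio of 0.523.

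Most of the other ATF4 target genes, which serve amino acid synthesis, uptake and stress signalling, also had the lower signal with T3. Of 26 detected genes 22 were below 1 and 4 above it, with a median log2 ratio of -0.09, while 50.1% of all detected genes were above 1. All 26 were present on both arrays. Of all probe sets present on both arrays, 48.6% were above 1. In the signal range of the members the share was 46.3%, so brighter probe sets leaned slightly below 1. Nupr1, a small stress-induced chromatin protein, had 1763 without and 1553 with T3, a ratio of 0.881 at percentile 4.2 of its neighbours. Sqstm1, the autophagy receptor p62, had a ratio of 0.923 in the brightest probe set, 0.899 in a second one and 1.62 in a dim one (28.1 and 45.6). Eif4ebp1, a translation repressor, was at 0.948 and the serine synthesis gene Psat1 at 0.999. The glycine transporter gene Slc6a9 had the highest ratio of the list, 1.18 (171 and 201).

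Several genes outside the naming rule were singled out after their values were seen. Slc7a11 encodes the cystine transporter, and its ratio was 0.747. Its partner chain Slc3a2 was at 0.886, with signals of 742 and 657. The large neutral amino acid transporter gene Slc7a5, which shares that chain, was at 0.795 with dim signals of 59.3 and 47.1. The mitochondrial folate enzyme gene Mthfd2 was at 0.789 (151 and 119), the cysteine-forming Cth at 0.817 and Cebpg, a partner of ATF4, at 0.812. On the other side of 1 were the folate enzyme gene Shmt2, at 1.07, and the glutamine carrier gene Slc38a2, at 1.05. The positions of these singled-out genes among their neighbours in signal were not computed, and none of them was past 1.5-fold.

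The cytosolic tRNA synthetases are enzymes that load amino acids onto tRNA, and some of them are known ATF4 targets. Of 16 detected genes 12 were below 1 and 4 above it, with a median log2 ratio of -0.07 and 0 past 1.5-fold in either direction. With the median over the probe sets of each gene the list median was -0.11, and over every detected probe set -0.12. Vars1 had the lowest ratio, 0.723, with 186 without and 134 with T3, at percentile 0.2 of its neighbours. It was named for being the lowest of the list, so a low rank was built into the choice. Nars1 had 1391 without and 1257 with T3, a ratio of 0.904. Aars1 was at 0.993, Gars1 at 1.03 and Yars1, the highest, at 1.07. Lars1 was at 0.969 in its brightest probe set. A dimmer one, with 132 without and 69.5 with T3, was at 0.526 and has that ratio in the authors' deposited table of decreases.

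Of 18 ER chaperone and folding genes 8 were above 1 and 10 below it, with a median log2 ratio of -0.01, and 0 were past 1.5-fold in either direction. After loess normalization 11 were above 1 and 7 below it. Hspa5 encodes BiP, the ER chaperone that holds the sensors inactive, and it had 2134 without and 2196 with T3, a ratio of 1.03. Hsp90b1 was at 0.938, and the disulfide isomerase genes P4hb, Pdia3 and Pdia4 were at 0.948, 0.994 and 0.930, the last being the lowest of the list. Sil1, the nucleotide exchange factor of BiP, had the highest ratio, 1.30 (74.5 and 96.5). A dimmer probe set of the oxidase gene Ero1a was at 1.54 (20.3 and 31.3), while the brightest one was at 0.948.

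Among 16 genes of ER-associated degradation 7 were above 1 and 9 below it, with a median log2 ratio of -0.02 and 0 past 1.5-fold. Sel1l, the scaffold of the ubiquitin ligase SYVN1, was at 1.13 in its brightest probe set and at 0.920 and 0.863 in its others. Edem1, which helps to remove misfolded glycoproteins, was at 1.05, Selenos at 1.002 and Erlec1 at 0.983. Vcp, the ATPase that pulls proteins out of the membrane, had 1571 without and 1436 with T3, a ratio of 0.914. Ube2j2, a ubiquitin-conjugating enzyme, was the lowest at 0.893.

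Of 10 detected sensor and eIF2alpha genes 3 were above 1 and 7 below it, with a median log2 ratio of -0.03 and 0 past 1.5-fold. The split was 5 and 5 after loess or quantile normalization. Eif2ak3 (PERK) had 369 without and 319 with T3, a ratio of 0.865 at percentile 4.4 of its neighbours. Eif2ak2, the kinase PKR that senses double-stranded RNA, had the highest ratio, 1.22 (83.7 and 102). Eif2b5, a subunit of the exchange factor of eIF2, had the lowest at 0.856. Eif2s1, which encodes eIF2alpha, was at 0.994, the protease gene Mbtps1 at 0.963 and the adaptor gene Nck1 at 0.942.

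**Figure D3:**
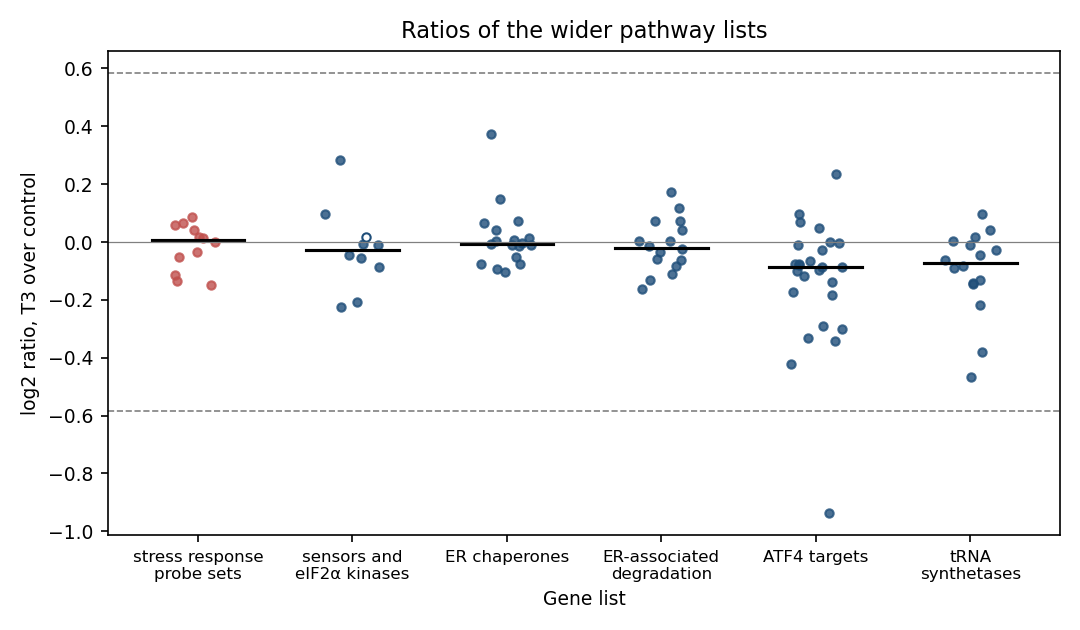
The log2 ratio of T3 over control (vertical) for the 12 present stress response probe sets (red) and for the detected genes of the 5 wider lists (blue, 1 point per gene, open where present on 1 array only), with black bars at the medians and dashed lines at 1.5-fold. Gdf15, among the ATF4 targets, is the 1 point beyond a dashed line.

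Both arrays called a like share of probe sets present, 56.7% in control and 55.6% with T3. Of 9 hepatocyte markers with a named probe set all were present on both arrays, from Alb (3972 without and 3449 with T3), Apoa1 (3040 and 2925) and Ttr (2232 and 2273) to Hnf4a (139 and 137) and Cps1 (84.1 and 113). Their summed signal was 0.957 times control. Some genes listed as markers of other liver cells were called present too. Which cells gave these signals was not tested. Of 5 bile duct markers Krt19 (1240 and 1079), Epcam (1038 and 901) and Krt7 (527 and 478) were detected, all lower with T3, with a summed signal of 0.876 times control, and Sox9 and Spp1 were absent. Of 8 stellate and fibroblast markers 7 were detected and Col1a2 was absent. Their summed signal of 0.901 times control was made up mostly of Vim (1621 and 1418) and Tagln (1096 and 986). Acta2 at 1.21, Des at 1.22 and the dim Col3a1 at 1.22 (8.11 and 9.93) were on the other side of 1. Col1a1 (9.02 and 8.01) was absent on the control array, its brighter one, so it gives no ratio here. The dim Lrat was past 1.5-fold and lower at 0.532 (13.8 and 7.32). Of 5 leukocyte markers with a named probe set Cd163 was the 1 detected, at a ratio of 1.597 with signals of 4.79 and 7.64, and of 4 such endothelial markers 0 were detected. The part of other cell types in the lower ATF4 target signals was not tested.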

How the data were processed

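RNA of 1 control and 1 T3-treated culture was measured on 1 array each. For each probe set the authors deposited an intensity, a normalized MAS5 signal per the file headers, with a MAS5 detection p-value and call. Affymetrix Expression Console was used per the submitters' processing notes; its version is not given in the sources used here. The deposited ratio is T3 signal over control signal, per the file headers, and equalled the quotient of the signals. The series value table held the same intensities.

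The 57 array controls among the 31095 probe sets were not analysed. The log2 ratio had no pseudocount. A probe set was past a threshold (1.5-fold or 2-fold) when present on the brighter array; the present call reached a detection p-value of 0.0461. Genes were named by gene number through the RefSeq table of GRCr8, otherwise by the symbol in the file. All member probe sets are named; of each wider list, genes past 1.5-fold, the 4 brightest, and the highest and lowest ratios. The members and lists were chosen with earlier results of these data known. No depth or interval applies to single arrays; their number limits the precision. The calculations (Python 3.11.15, pandas 2.3.3, statsmodels 0.14.6) were run on simulated signals with added changes larger than the 2-fold threshold. That run checked the code only. It did not cover the 1.5-fold threshold or the real spread between arrays. Alternatives were pseudocounts, centring, loess, quantile normalization, detection filters, the series value table and how the probe sets of a gene were combined.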

Additional observations from a re-analysis of the deposited data

How the results depend on the processing

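With 1 array per group no array could be left out. No paired analysis was possible because each group has 1 sample. The counts of stress response probe sets past 1.5-fold and 2-fold stayed at 0 with pseudocounts, centring, loess, quantile normalization, the detection filters, the series value table and the addition of Ppp1r15a, which was chosen after seeing the data; they were not recounted with 1 value per gene. Over these alternatives the 88 recomputed log2 ratios of single present probe sets kept their sign. Only centring, loess and quantile normalization could have changed it. A pseudocount cannot change the sign of a ratio, and the detection filters and series value table returned the same values. The median log2 ratio of the present members ran from -0.03, with 1 value per gene, to 0.01 with loess, so its sign is not settled. With a pseudocount of 64 the count of ATF4 targets at least 1.5-fold lower was 0 in place of 1, since a pseudocount shrinks the ratio of a dim probe set such as Gdf15. The number of ATF4 targets below 1 was 20 or 21 of 26, in place of 22, under centring, loess, quantile normalization and the median over probe sets. That of the tRNA synthetases was 11 to 13 of 16. The median of the sensor list was -0.04 with presence on both arrays required. The median of the ER chaperone list turned positive with centring, loess (0.01) and quantile normalization. Signal over background limits the dim probe sets, whose ratios spread more, as the plot of ratios by signal shows.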
